A study of Mus musculus with 6 samples.

Results

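The Wnt ligand genes described here are the 10 genes Wnt2, Wnt2b, Wnt3, Wnt3a, Wnt4, Wnt5a, Wnt5b, Wnt6, Wnt8a and Wnt11, each read by the 1 array feature whose annotation names that gene alone, out of 30702 genes measured. RNA came from a mouse embryonic stem cell line that the labels call iRunx, grown as embryoid bodies (cell aggregates that form the early germ layers) and taken apart at day 4 of differentiation. Cells carrying Flk1 and lacking PDGFRα were then sorted by flow cytometry. Both groups share the iRunx line, the day and the sort, and the series text gives 3 separate experiments. The control group (3 arrays) had no retroviral HOXB4, and the HOXB4 group (3 arrays) expressed the homeodomain protein HOXB4 from a retrovirus that also carried the red fluorescent marker tdTomato. The sources used here do not say whether the controls carried an empty virus, whether a Runx gene of the line was switched on or whether the line is 1 clone. The comparison asks what HOXB4 changed in this sorted fraction.

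Wnt ligands are secreted glycoproteins that carry a lipid and bind Frizzled receptors on nearby cells. With the co-receptors Lrp5 and Lrp6, ligands such as Wnt3, Wnt3a and Wnt8a keep beta-catenin from being degraded, so that it acts with TCF and LEF factors on target genes, and this branch is needed for the primitive streak and mesoderm. Wnt5a, Wnt5b and Wnt11 are best known for beta-catenin-independent signalling in cell movement and polarity, while Wnt2, Wnt2b, Wnt4 and Wnt6 act in the development of vessels, heart, lung, kidney and epithelia.

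Values were log2 expression summaries, on which 1 unit is a doubling. The array medians over genes lay between 5.10 and 5.22, and 23 background features with no mouse target had array medians of 3.06 to 3.15. Kdr, which encodes the sorted marker Flk1, lay between 13.68 and 14.33 in the 6 arrays. The single feature listed for Pdgfra is shared with a microRNA gene and lay between 5.95 and 7.15, with its highest value in HOXB4 2. The feature listed for Hoxb4 is also shared with a microRNA gene and does not check the labels. HOXB4 2 stood apart from HOXB4 1 and 3 in many genes, and values without it are also given for the results it moved most.

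The RefSeq promoter table (GRCm38.p6) held 11 windows for 8 of the 10 genes, with no window for Wnt5a and Wnt8a. The 250 bases before the start site are shown for Wnt2, the member whose groups did not overlap, for Wnt3, which spread widely between arrays, and for Wnt4, which had the most CG pairs. They run 5′ to 3′ on the strand of the gene, and capitals mark each CG pair.

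Wnt2 (chr6:18030446-18030695, minus strand): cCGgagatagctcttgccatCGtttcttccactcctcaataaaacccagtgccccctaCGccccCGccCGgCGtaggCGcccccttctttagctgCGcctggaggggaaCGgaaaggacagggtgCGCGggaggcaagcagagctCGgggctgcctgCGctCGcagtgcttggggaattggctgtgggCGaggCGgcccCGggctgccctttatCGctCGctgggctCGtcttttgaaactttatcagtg

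Wnt3 (chr11:103773925-103774174, plus strand): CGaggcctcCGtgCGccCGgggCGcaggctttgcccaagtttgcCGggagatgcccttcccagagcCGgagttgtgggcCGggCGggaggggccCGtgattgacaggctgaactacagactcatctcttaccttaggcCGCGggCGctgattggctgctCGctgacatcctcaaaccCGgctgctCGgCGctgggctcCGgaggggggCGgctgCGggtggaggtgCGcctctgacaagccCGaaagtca

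Wnt4 (chr4:137277385-137277634, plus strand): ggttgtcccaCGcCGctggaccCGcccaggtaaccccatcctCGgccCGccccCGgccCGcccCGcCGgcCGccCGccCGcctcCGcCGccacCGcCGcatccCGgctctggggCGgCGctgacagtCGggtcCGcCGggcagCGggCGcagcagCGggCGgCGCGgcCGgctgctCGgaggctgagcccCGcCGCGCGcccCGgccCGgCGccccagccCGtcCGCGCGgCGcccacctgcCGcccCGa

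These windows hold 20, 22 and 44 CG pairs and have a GC content of 63.6%, 68.0% and 85.2%. Over all 32851 windows of the table the medians were 6 CG pairs and 52.4%. Of the 11 windows of the Wnt ligand genes, 8 lay above the 75th percentile of all windows in GC content (61.2%) and 8 in CG pairs (16), and the range was 53.2% to 87.6% and 4 to 44 pairs. The Hox-Pbx motif TGATNNAT was in 0 of the 11 windows on either strand (7.68% of all windows), the TCF/LEF core CTTTGA in 2 (13.8%), 1 of Wnt5b and 1 of Wnt11, and the T-box motif TCACACCT in 0 (1.12%). A match is a description of letters in the window, and methylation and binding were not measured here.

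Wnt5a, Wnt3 and Wnt2 varied most between arrays. Wnt5a stood at -2.08 and -2.14 and Wnt3 at -1.46 and -1.31 log2 units from the control mean in HOXB4 1 and HOXB4 3, whereas HOXB4 2 held the highest Wnt5a and Wnt3 of the 6 arrays. Wnt2 was the member whose HOXB4 values all lay under all control values. No member passed limma's test over the 6 arrays. Without HOXB4 2, which was known to stand apart when it was left out, Wnt5a was the only member that passed. In sorted populations read in bulk, fewer cells of a type and less RNA per cell cannot be told apart.

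**Figure D1:**
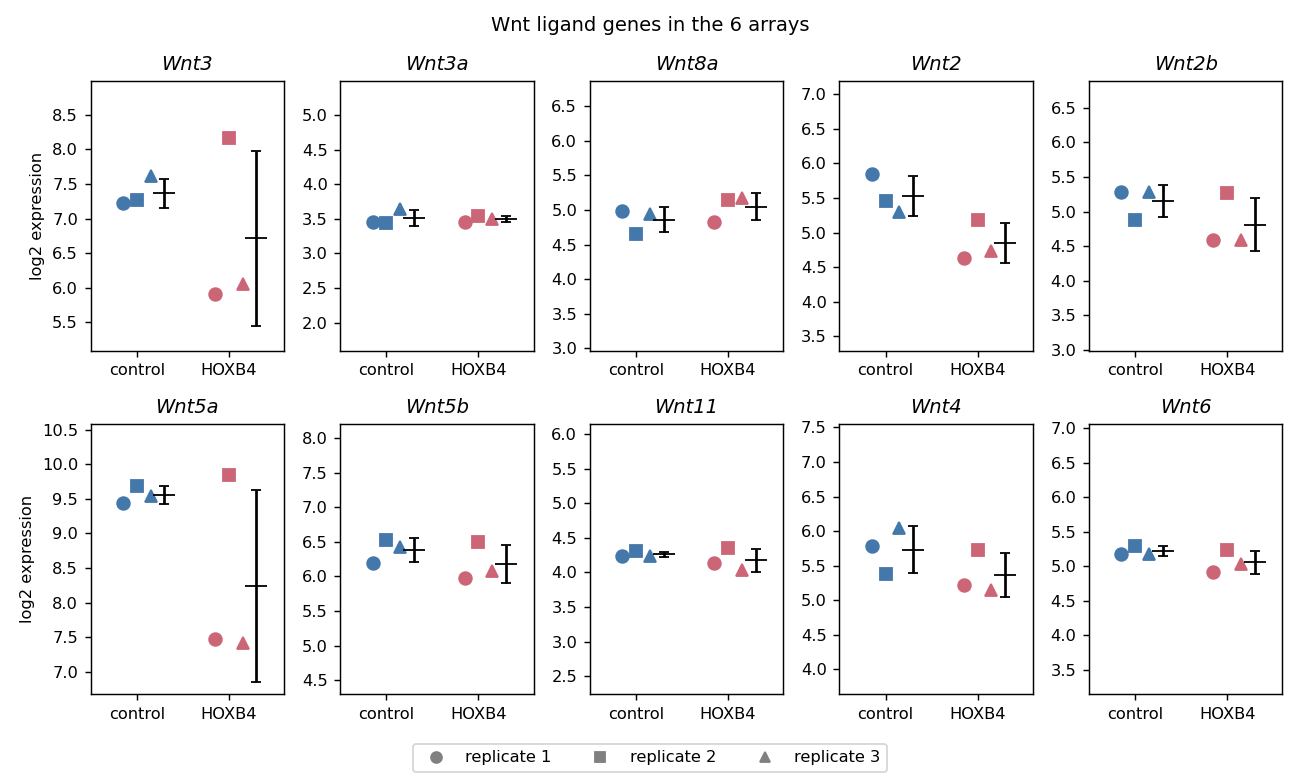
Log2 expression of the 10 Wnt ligand genes (y axis, each panel spanning the same number of log2 units) in the 3 control and 3 HOXB4 arrays; symbols give the replicate number and black bars the mean and SD of each group (n = 3). HOXB4 2 lies with or above the controls for Wnt3 and Wnt5a, at 8.17 and 9.85, while HOXB4 1 and 3 lie well under them.

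Among the ligands of the beta-catenin branch, Wnt3, which the embryo needs for a primitive streak, had log2 values of 7.22, 7.27 and 7.61 in control 1, 2 and 3. HOXB4 1, 2 and 3 read 5.91, 8.17 and 6.06. The groups overlapped, because HOXB4 2 was above every control and HOXB4 1 and 3 were below every control. The means were 7.37 ± 0.21 and 6.71 ± 1.26 (SD, n = 3 each), a difference of -0.66 (SE 0.57, 95% interval -2.02 to 0.71, limma adjusted p = 0.749). The difference was -1.38 without HOXB4 2, -0.26 without HOXB4 1 and -0.33 without HOXB4 3. Wnt3a, which maintains the streak and tail bud, had control values of 3.45, 3.44 and 3.64 and HOXB4 values of 3.45, 3.54 and 3.50. Of the 23 background features, 9 had a higher mean than the Wnt3a feature, so its level was near background. It differed by -0.014 (SE 0.094, interval -0.24 to 0.21, limma adjusted p = 0.971), a sign that turned with 2 other scalings of the arrays, and by -0.036 without HOXB4 2. Wnt8a, expressed early in the posterior embryo, read 4.98, 4.65 and 4.94 in controls and 4.82, 5.14 and 5.18 in HOXB4 cells. It was the only member with a difference above 0, at 0.19 (SE 0.14, interval -0.15 to 0.52, adjusted p = 0.711), and its groups overlapped through HOXB4 1. It was 0.14 without HOXB4 2, 0.30 without HOXB4 1 and 0.085 without control 2.

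Wnt2 and Wnt2b are related ligands of mesoderm, lung and heart. Wnt2 read 5.85, 5.45 and 5.29 in control 1, 2 and 3. The HOXB4 values, in the same order, were 4.63, 5.18 and 4.73. All HOXB4 values lay under all control values, with HOXB4 2 the nearest to the controls. The means were 5.53 ± 0.29 and 4.85 ± 0.29 (SD, n = 3 each), a difference of -0.68 (SE 0.20, interval -1.16 to -0.21), which is 1.61-fold. Its unadjusted limma p was 0.0112 and its adjusted p 0.605, and the exact two-sided permutation test over samples gave p = 0.1, the smallest that 3 against 3 allows. Leaving out 1 array at a time kept the Wnt2 difference between -0.85 and -0.52. Wnt2b read 5.29, 4.88 and 5.28 in controls and 4.59, 5.26 and 4.59 in HOXB4 cells, so that HOXB4 2 lay among the controls and HOXB4 1 and 3 under them. Its difference was -0.34 (SE 0.22, interval -0.85 to 0.18, adjusted p = 0.678), and -0.56 without HOXB4 2.

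Among ligands known for signalling without beta-catenin, Wnt5a, which drives cell movement and axis extension, had the widest spread of the 10. Control 1, 2 and 3 read 9.43, 9.68 and 9.55, and HOXB4 1, 2 and 3 read 7.47, 9.85 and 7.41. The controls lay close together, with HOXB4 2 just above them and HOXB4 1 and 3 far below, so the groups overlapped. The means were 9.55 ± 0.12 and 8.24 ± 1.39 (SD, n = 3 each), a difference of -1.31 (SE 0.62, interval -2.79 to 0.17, adjusted p = 0.619), which is 2.48-fold. Without HOXB4 2, Wnt5a fell by 2.11 on the log2 scale (SE 0.12, interval -2.40 to -1.82, limma adjusted p = 0.0131), which is 4.32-fold, and ranked 3 among all genes by p. HOXB4 2 was known to stand apart when it was left out, and it held the highest Wnt5a. The small SE and p follow from that choice and only describe the remaining arrays. Without HOXB4 1 it was at -0.92 and without HOXB4 3 at -0.89 (adjusted p = 0.915 and 0.889).

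Wnt5b, the paralog of Wnt5a, read 6.19, 6.52 and 6.43 in controls and 5.98, 6.49 and 6.08 in HOXB4 cells. HOXB4 1 and 3 were the lowest arrays and HOXB4 2 lay among the controls, and the difference was -0.20 (SE 0.16, interval -0.58 to 0.19, adjusted p = 0.731). It was -0.35 without HOXB4 2 and -0.096 without HOXB4 1. Wnt11, which acts in heart formation and convergent extension, read 4.23, 4.31 and 4.24 in controls and 4.14, 4.36 and 4.03 in HOXB4 cells, and 4 of the 23 background features had a higher mean. Its difference was -0.086 (SE 0.11, interval -0.34 to 0.17, adjusted p = 0.817), with -0.18 without HOXB4 2 and -0.012 without HOXB4 3. Wnt4, a ligand of kidney and gonad development, read 5.78, 5.37 and 6.04 in controls and 5.23, 5.72 and 5.15 in HOXB4 cells, a difference of -0.37 (SE 0.22, interval -0.88 to 0.15, adjusted p = 0.657). Control 2 was the lowest control for Wnt4 and Wnt2b, and without it their differences were -0.55 and -0.47, while without HOXB4 2 they were -0.55 and -0.56. Wnt6, expressed in epithelia next to mesoderm, read 5.18, 5.30 and 5.18 in controls and 4.91, 5.24 and 5.03 in HOXB4 cells. HOXB4 1 and 3 were again the lowest arrays, and the difference was -0.16 (SE 0.11, interval -0.42 to 0.10, adjusted p = 0.694). It was -0.25 without HOXB4 2 and -0.085 without HOXB4 1.

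Over the 6 arrays, 0 of the 10 Wnt ligand genes had a limma p under 0.05 after Benjamini-Hochberg adjustment over all genes, and 0 of 30702 genes did (0%). At an unadjusted p of 0.05 the count was 1 of 10, against 2513 genes (8.19%). Of the 10 genes, 9 had a difference below 0, where 18414 genes did (60.0%), and the median difference was -0.27, against -0.039 over all genes. All HOXB4 values lay below all control values for 1 of 10, Wnt2, against 10.2% of genes, and above them for 0 of 10, against 3.24%. By these counts the 10 genes were near the background of the array in calls and in groups without overlap.

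Without HOXB4 2 the counts differed. The 2 remaining HOXB4 values lay below all 3 controls for 8 of the 10 genes, all but Wnt3a and Wnt8a, where 21.4% of all genes did so, and above them for 0 of 10, against 10.5%. The median difference was then -0.45, against -0.047 over all genes. Of the 10 genes, 1 passed limma's test, Wnt5a, where 46 of all genes did (0.15%), and Wnt3 had a difference of -1.38 (SE 0.15, adjusted p = 0.0512), which is 2.61-fold. The 95% intervals of Wnt2, Wnt2b, Wnt4 and Wnt5b then lay below 0 as well, with adjusted p from 0.153 to 0.322. No other single array, left out, gave a call in any gene. HOXB4 2 was known to stand apart when it was left out, so these values describe the other 5 arrays.

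**Figure D2:**
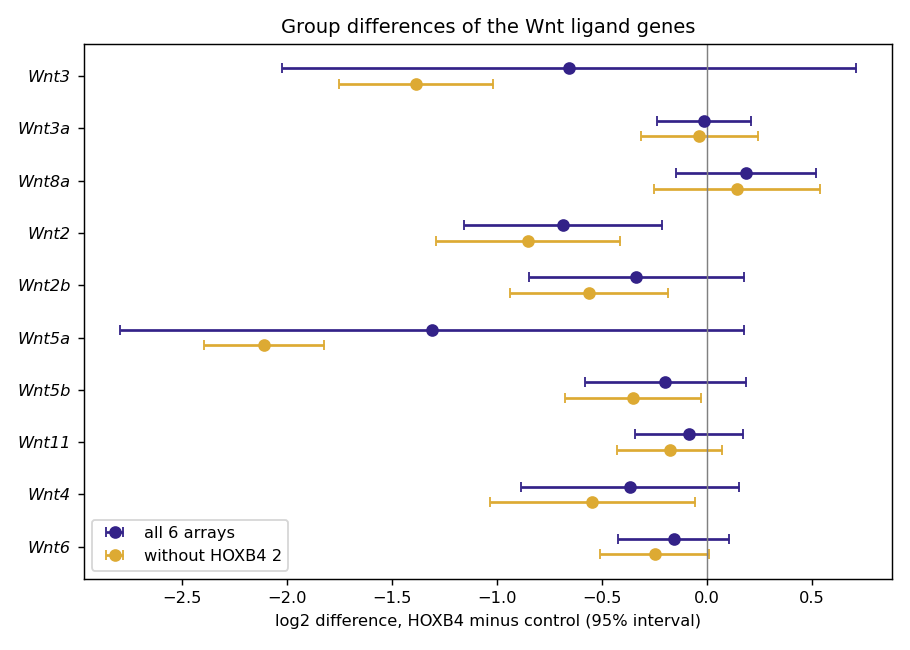
Log2 difference, HOXB4 minus control, of each Wnt ligand gene with its 95% limma interval (x axis), over all 6 arrays and without HOXB4 2. The Wnt5a interval runs from -2.79 to 0.17 with all arrays and from -2.40 to -1.82 without HOXB4 2.

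Most members shared their lowest arrays, while the highest array differed from gene to gene. HOXB4 1 and HOXB4 3 were the 2 lowest of the 6 arrays for 8 of 10 Wnt ligand genes, against 5169 of 30702 genes (16.8%). This pattern was chosen after the values were seen. The 8 are the same genes that lay below all controls without HOXB4 2, so the 2 counts are 1 observation. HOXB4 2 was the highest array for 3 of 10, Wnt3, Wnt5a and Wnt11, against 11.8% of genes. Relative to the mean of the controls, the median member stood at -0.45 in HOXB4 1, 0.10 in HOXB4 2 and -0.43 in HOXB4 3, while the median gene stood at -0.075, -0.034 and -0.026. The 10 genes are read in the same 6 arrays and are not replicates of one another.

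Some marker lists were also lowest in HOXB4 1 and 3. The mean level of 8 measured primitive streak genes was 8.03 to 8.42 in controls, 7.04 and 7.20 in HOXB4 1 and 3 and 8.87 in HOXB4 2, and HOXB4 1 and 3 were the 2 lowest arrays for all 8. The mean of 10 lateral plate, allantois and cardiac genes was 8.57 to 9.02 in controls, 6.92 and 6.89 in HOXB4 1 and 3 and 8.50 in HOXB4 2. The mean of 10 genes listed for the sorted fraction and for endothelium, Kdr among them, split the arrays in another way. It was lowest in HOXB4 2 and highest in HOXB4 1, at 8.78 to 10.17 in controls, 11.07 and 9.80 in HOXB4 1 and 3 and 8.54 in HOXB4 2, and control 2 stood apart from the other controls at 10.17, above HOXB4 3. Of these lists no gene was called over the 6 arrays, and without HOXB4 2 the genes called lower were Mixl1 of the streak list and Hand1, Foxf1, Tbx20 and Isl1 of the lateral plate list, named after their values were seen. The part of these cell types in the Wnt ligand values was not tested.

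**Figure D3:**
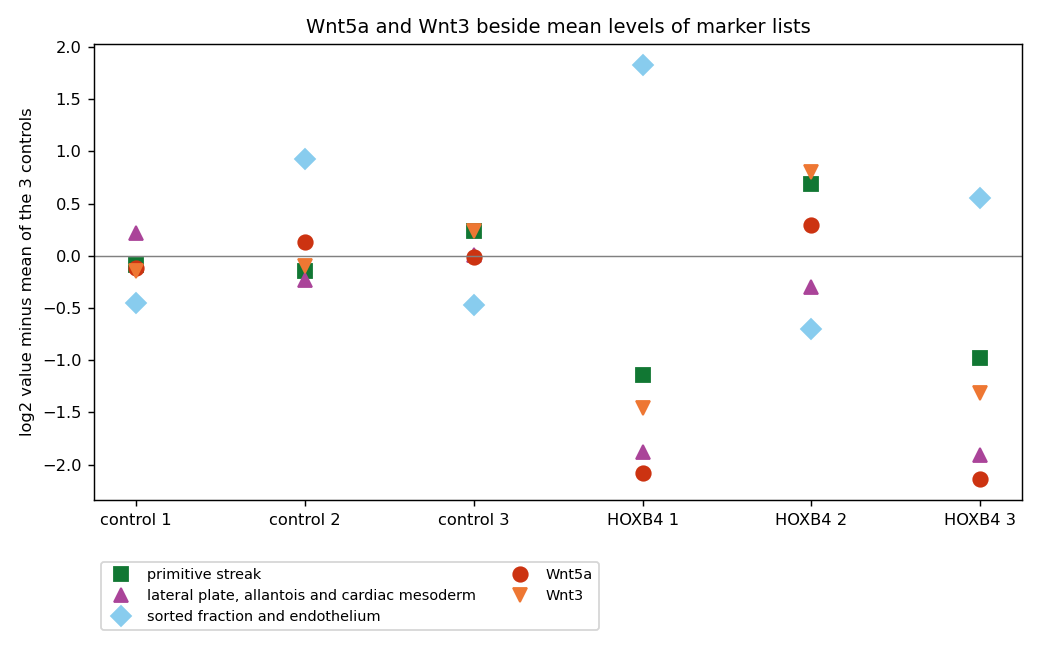
Log2 value minus the mean of the 3 controls (y axis) of Wnt5a, Wnt3 and the mean of 3 marker lists in each array. Wnt3, Wnt5a and the primitive streak list lie lowest in HOXB4 1 and 3 and highest in HOXB4 2, where they stand above the controls.

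The mean of 10 early blood genes ranged from 7.50 to 7.90 in controls and from 7.53 to 7.81 in HOXB4 cells, over genes that went opposite ways, named after their values were seen. The embryonic globin gene Hbb-bh1 read 10.02 and 9.84 in HOXB4 1 and 3 and 13.6 in HOXB4 2, whereas Gata2, a blood progenitor factor, read 11.0 and 11.1 there and 8.50 in HOXB4 2. The mean of the 7 measured paraxial mesoderm genes ranged from 5.22 to 5.64 in controls and from 5.15 to 5.24 in HOXB4 cells. The 8 pluripotency genes ranged from 6.81 to 7.91 in controls and from 7.30 to 8.48 in HOXB4 cells, with the highest mean in HOXB4 2. The mean of the 8 neural and ectodermal genes ranged from 7.22 to 7.64 in controls. It was also lowest in HOXB4 1 and 3, at 6.71 and 7.07, and was 7.71 in HOXB4 2. HOXB4 1 and 3 were the 2 lowest arrays for 2 of the 8, the keratin genes Krt8 and Krt18. These differed by -1.33 (SE 0.72) and -1.66 (SE 0.86). The differences of Sox1, Pax6, Sox2, Nes, Otx2 and Tfap2a ran from -0.067 to 0.24. The mean of the 8 endoderm genes ranged from 4.94 to 5.20 in controls. It was 4.67 and 4.84 in HOXB4 1 and 3 and 4.95 in HOXB4 2. Cxcr4 set this order, at 8.66 to 9.50 in controls and 5.12 and 6.13 in HOXB4 1 and 3. It differed by -2.38 (SE 0.82), while Sox17, Foxa2, Afp, Ttr, Apoa1, Hnf4a and Cer1 differed by -0.19 to 0.34. HOXB4 1 and 3 were the 2 lowest arrays for 2 of these 8 genes, and Cxcr4 alone was called without HOXB4 2. The mean of the 8 fibroblast and smooth muscle genes ranged from 5.97 to 6.21 in controls and from 5.86 to 6.27 in HOXB4 cells.

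The other 9 Wnt ligand genes, Wnt1, Wnt7a, Wnt7b, Wnt8b, Wnt9a, Wnt9b, Wnt10a, Wnt10b and Wnt16, did not share the spread of Wnt5a and Wnt3. Their largest range over the 6 arrays was 0.29, for Wnt8b, against 2.43 for Wnt5a and 2.26 for Wnt3. Their differences ran from -0.10 (Wnt1) to 0.033 (Wnt9a), with a median of -0.065, and 0 of 9 were called. Without HOXB4 2 they ran from -0.12 (Wnt7b) to 0.056 (Wnt9a). For Wnt10b all HOXB4 values lay under all control values, at 4.25 to 4.33 against 4.35 to 4.42. That held for 1 of the 9, against 10.2% of all genes. Each of the 9 features had between 3 and 10 of the 23 background features above it.

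Some members lie beside or across other genes, and the sources used here do not say which strand each feature reads. In the RefSeq gene table the interval of Wnt3 overlaps that of Wnt9b, which lies on the opposite strand, and the Wnt9b feature lay between 4.75 and 4.85 and differed by 0.0079 (SE 0.080). Of the 23 background features, 3 had a higher mean than the Wnt9b feature, and the part of either transcript in the other's feature was not tested. Wnt2b overlaps St7l, whose feature lay between 7.10 and 7.36. Wnt5b overlaps Fbxl14, a gene for a ubiquitin ligase subunit, whose feature had control values of 8.78, 8.89 and 8.79. HOXB4 1, 2 and 3 read 8.35, 8.87 and 8.01, so HOXB4 1 and 3 were lowest, as for Wnt5b, and the difference of -0.41 (SE 0.21) was -0.64 without HOXB4 2. Whether the Fbxl14 transcript adds to the Wnt5b feature was not tested. Wnt3a has Wnt9a as its nearest coding gene, and Wnt10a is among the nearest 2 of Wnt6, and their features differed by 0.033 (SE 0.10) and 0.012 (SE 0.097).

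Ligand release showed 1 gene above 0 and 5 below among its 6 measured genes, with a median difference of -0.14 and none called. Of all genes, 60.0% were below 0, a share to set beside this and the following lists. Porcn, the enzyme that attaches the lipid to Wnt proteins, read 5.72, 5.84 and 6.10 in controls and 6.37, 6.17 and 6.30 in HOXB4 cells, without overlap, a difference of 0.39 (SE 0.13, adjusted p = 0.605). Tmed5, a cargo receptor, and Vps35, of the retromer that recycles the Wnt carrier Wls, differed by -0.34 (SE 0.20) and -0.15 (SE 0.093), both with every HOXB4 value below every control. These genes were named for having the smallest p of the list. Of the 6 genes, 2 lay below all controls and 1 above, against 10.2% and 3.24% of all genes.

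Of the 10 Frizzled receptor genes, 6 had differences above 0 and 4 below, with a median of 0.070 (0.15 without HOXB4 2) and 0 called. Fzd5 differed by 0.45 (SE 0.19), Fzd6 by 0.22 (SE 0.16) and Fzd7, a receptor of early mesoderm, by -0.33 (SE 0.29). Fzd7 read 10.6, 10.1 and 10.7 in controls and 9.78, 10.7 and 9.83 in HOXB4 cells, with the same 2 arrays lowest as for Wnt5a, and its difference was -0.64 (SE 0.20) without HOXB4 2. Among 14 measured co-receptor, alternative receptor and R-spondin pathway genes, 9 were above 0 and 5 below (median 0.027, and -0.0091 without HOXB4 2), and 0 were called. Lgr4, a receptor of R-spondins, and Ror1, a receptor tyrosine kinase that binds Wnt5a, had every HOXB4 value above every control, differing by 0.52 (SE 0.18) and 0.32 (SE 0.10), with adjusted p of 0.605 each. Ryk, another receptor that binds Wnt ligands, had every HOXB4 value below every control, at -0.35 (SE 0.13). These 3 were named for having the smallest p of the list, which favours groups without overlap. Of the 14 genes, 2 lay above all controls and 1 below, against 3.24% and 10.2% of all genes.

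Among 13 measured secreted antagonists, 9 were above 0 and 4 below (median 0.10, and 0.022 without HOXB4 2), with 0 called. Dkk3, of the Dickkopf family, read 5.31, 5.46 and 5.37 in controls and 4.96, 5.02 and 4.99 in HOXB4 cells, a difference of -0.39 (SE 0.085, adjusted p = 0.605) that HOXB4 2 shared. Dkk2 and Sost, inhibitors that bind Lrp5 and Lrp6, differed by 0.23 (SE 0.12) and 0.52 (SE 0.32). In HOXB4 2 Sost stood at -0.22 from the control mean, and without that array its difference was 0.89 (SE 0.18). Of the 23 background features, 7 had a higher mean than Dkk2 and 4 a higher mean than Sost. Signal over background therefore limits what differences in these 2 genes can show. Of 15 measured genes of the beta-catenin cascade, 9 were above 0 and 6 below (median 0.094, and 0.14 without HOXB4 2), and 0 were called. Dvl1, a Dishevelled adaptor, differed by 0.32 (SE 0.13), the kinase gene Gsk3b by 0.40 (SE 0.18) and Tcf7l1, a repressor of the TCF family, by 0.39 (SE 0.17).

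Among 16 measured beta-catenin target genes, 11 were below 0, against 60.0% of all genes, and 5 above (median -0.12), and 0 were called. HOXB4 1 and 3 were the 2 lowest arrays for 10 of the 16, against 16.8% of all genes. Nkd1, an induced inhibitor of the pathway, read 11.1, 10.8 and 11.4 in controls and 8.60, 11.1 and 8.20 in HOXB4 cells, a difference of -1.83 (SE 0.70, adjusted p = 0.605). The caudal genes Cdx2 and Cdx4 differed by -1.71 (SE 0.48) and -0.60 (SE 0.22), and their HOXB4 values lay below all controls. That held for 2 of the 16 genes, against 10.2% of all genes. Without HOXB4 2 the list median was -0.33 and 2 of the 16 were called, Lef1 (also in the cascade list) at -2.18 (SE 0.16, adjusted p = 0.0232) and Nkd1 at -2.72 (SE 0.21, adjusted p = 0.0232). Of 16 planar polarity and non-canonical pathway genes, 12 were below 0, against 60.0% of all genes, and 4 above (median -0.12), with 0 called. HOXB4 1 and 3 were the 2 lowest arrays for 7 of these 16. In other pathway lists that count was 6 of the 14 co-receptor genes, 3 of the 15 cascade genes and 2 of the 6 release genes. It was 1 each of the 10 Frizzled, 13 antagonist and 9 other Wnt ligand genes. The lists share genes, so their counts are not separate results. Of the targets, Fgf8, Msgn1 and Tbx6 are also in the streak list, Lgr5 and Znrf3 in the co-receptor list, Notum in the release list and Dkk1 in the antagonist list. Ror2 and Ptk7 are in both the co-receptor and the polarity list. Daam2, a formin that Dishevelled binds, differed by -0.54 (SE 0.21), Celsr3, a polarity cadherin, by 0.18 (SE 0.093) and Prickle2, a planar polarity protein gene, by -0.16 (SE 0.080).

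**Figure D4:**
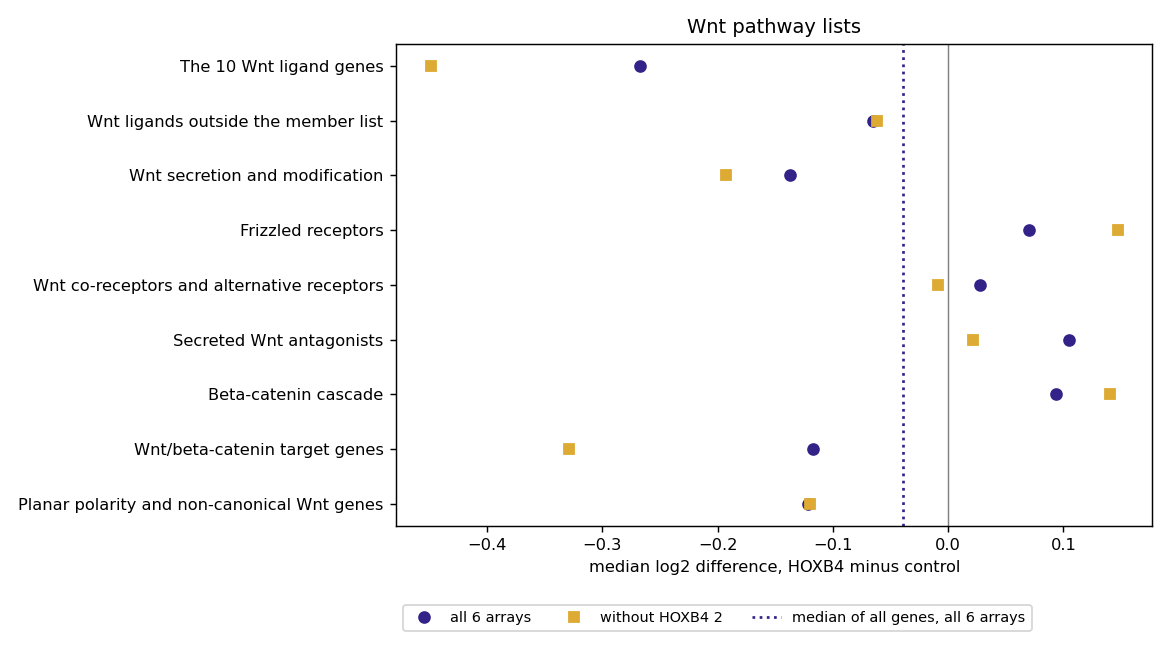
Median log2 difference, HOXB4 minus control (x axis), of the Wnt ligand genes and of 8 pathway lists, over all 6 arrays and without HOXB4 2; the dotted line is the median of all genes. The 10 ligand genes stand at -0.27 and -0.45 and the beta-catenin targets at -0.12 and -0.33, and the receptor, antagonist and cascade lists lie within 0.15 of 0.

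For the 3 members with the largest SD over arrays, the genes with the most similar profile were found by the root mean square difference of centred log2 values over the 6 arrays. The nearest to Wnt5a was Lef1, a factor through which beta-catenin acts, with control values of 10.3, 10.2 and 10.7 and HOXB4 values of 8.35, 10.7 and 8.10, a root mean square difference of 0.17. Pcdh18, a protocadherin, Gpc3, a glypican that binds Wnt ligands, and Vrtn followed at 0.17, 0.20 and 0.23. Nearest to Wnt3 were the olfactory receptor gene Olfr893, Vstm2b, the posterior streak factor gene Evx1 and the ephrin gene Efna3, at 0.15 to 0.19. Nearest to Wnt2 were Umps, an enzyme of pyrimidine synthesis, Mrpl47, a mitochondrial ribosomal protein gene, Mmachc, of cobalamin metabolism, and Znhit6, at 0.050 to 0.063. Wnt2 had control 1 as its highest array and HOXB4 2 between the control values and those of HOXB4 1 and 3, so its profile differed from that of Wnt5a and Wnt3, where HOXB4 2 was highest. With 6 arrays and 30702 genes, near profiles are a description.

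**Figure D5:**
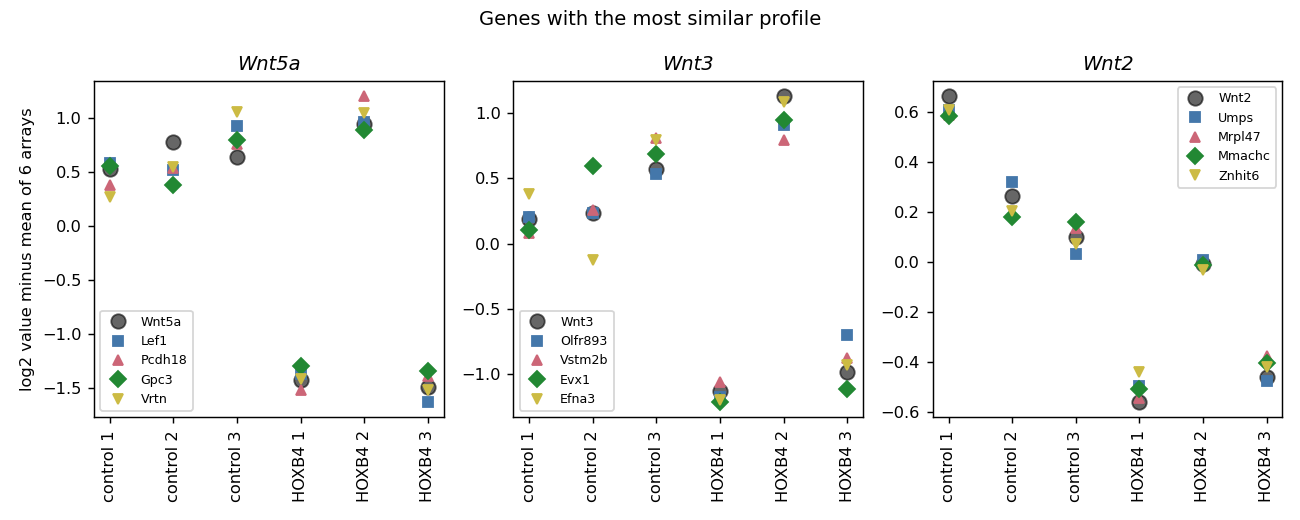
Log2 value minus the mean of the 6 arrays (y axis) for Wnt5a, Wnt3 and Wnt2 (black) and the 4 genes with the smallest root mean square difference to each, by array. Wnt5a and Wnt3 are highest in HOXB4 2, and Wnt2 is highest in control 1.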

How the data were processed

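RNA from 6 samples, 3 control and 3 HOXB4, was hybridised to 1 array each. Per the submitters' processing notes, Affymetrix Expression Console and RMA gave the deposited log2 value of each feature, with no version, setting or genome build stated in the sources used here. RMA equalises arrays, so a shift shared by most genes is partly removed, and levels are set only against background features, not between genes. Precision is limited by the number of arrays.

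Of 65956 features that were not controls, 31258 named 1 gene after symbols were updated through RefSeq (GRCm38.p6), 1492 several and 33206 none. The brightest stood for each of 30702 genes. Groups came from the sample titles. The group difference, HOXB4 minus control, came from limma (version 3.58.1, under R version 4.3.3) with lmFit and eBayes. Tests were two-sided, with Benjamini-Hochberg adjustment over all genes, a threshold of 0.05, moderated SE and no replicate block. The code was tested on simulated data. Alternatives were the replicate block, other priors, no moderation, array weights, a filter on dim features, 2 scalings, 2 choices of features and each array left out. Tables used pandas 2.3.3 and numpy 2.4.6 under Python 3.11.15, and plots matplotlib 3.10.9.

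The text names every Wnt ligand gene, the 3 genes with the smallest p per pathway list and the 4 nearest profiles of the 3 members with the largest SD, leaving out predicted, clone and microRNA genes. It also names Wnt genes beside a member. Members and lists were chosen with earlier results of these data known. Genes of a list with no single-gene feature, such as Ctnnb1, Ccnd1 and Tcf7, were not used here.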

Additional observations from a re-analysis of the deposited data

How the results depend on the processing

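Of 158 values of single Wnt ligand genes under 16 alternatives, 153 kept their direction and their side of the threshold, 4 changed sign and 1 passed. The block, the other priors, no moderation, the dim filter and the 2 choices of features leave a member's difference unchanged by design. Direction could turn only with array weights, the 2 scalings and left-out arrays, so the 153 do not measure how stable the directions are. The 4 were all of Wnt3a, at 0.0071 with arrays centred on their medians and 0.027 with cyclic loess. The others were 0.051 without control 3 and 0.0099 without HOXB4 1. With 1 array left out, Wnt3a ran from -0.047 to 0.051. The 1 was Wnt5a without HOXB4 2. With 1 array left out, the genes called ran from 0 to 46, the Wnt ligand genes called from 0 to 1, those lower without overlap from 1 to 8 (3 without control 2: Wnt2, Wnt2b and Wnt4), and the median member difference from -0.45 to -0.16. Counts without overlap under left-out arrays and scalings were added after seeing the data. With the replicate number as a block, 0 genes and 0 Wnt ligand genes were called. An unadjusted p under 0.05 was then found for 1294 genes (4.21%), against 2513 (8.19%) without the block. Of the 10 Wnt ligand genes it was found for 2 with the block, against 1 without it. Deviations of same-numbered arrays from their group means correlated at -0.59 to -0.35 across genes, and those of other pairs at -0.085 to 0.43. Within each group of 3 these deviations sum to 0, so the correlations are tied together and cannot decide whether the arrays are paired. The sources used here do not say whether same-numbered samples share an experiment, and the main fit took no pairing. Without moderation and with array weights 0 genes were called, with 1974 and 3232 at that unadjusted level. The filter on dim features asked for 3 arrays with a value no lower than the median feature, which 1 group alone can meet. It left out Wnt3a and Wnt11, and the median over the other 8 was -0.35. Wnt3a and Wnt11 had 9 and 4 of the 23 background features above them, so signal over background limits what a difference in them can show. The count was 3 for Wnt2b and Wnt8a, 2 for Wnt2 and Wnt6 and 1 for Wnt4, so the limit holds to a lesser degree there. It was 0 for Wnt3, Wnt5a and Wnt5b.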
